A study of Homo sapiens with 18 samples.

Results

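The 10 genes described here encode fibronectin, proteins of the elastic fibre and matricellular proteins of the extracellular matrix: FN1, ELN, FBN1, FBN2, LOX, TNC, POSTN, SPARC, THBS1 and THBS2. They were picked by symbol, by a rule that uses no measured value but with earlier results of these data known, and are 10 of the 61487 identifiers in the count table. Each of the 10 passed the filter on low counts that left 18544 genes for testing. RNA was counted in 18 libraries of MSC-hTERT, a line of human mesenchymal stem cells immortalized with telomerase. The libraries form 6 groups of 3, named by what the cells expressed. The labels name pMSCV, a retroviral vector that serves here as control, and SRF, or serum response factor, a transcription factor that binds growth-response and actin genes. They further name 4 fusions of SRF: to FOXO1 and to RELA (SRF-FOXO1, SRF-RELA), to ICA1L (SRF-ICA1L) and to PDGFRB (SRF-PDGFRB). FOXO1 and RELA are transcription factors, PDGFRB is a receptor kinase and ICA1L is a protein of vesicle membranes. Cells of all 6 groups carried hTERT and were grown in medium with serum, FGF-2, ascorbic acid and heparin. Whether a group is 1 clone or a mixed population, and what a replicate number stands for, is not given in the sources used here. The p-values therefore measure only the spread between these libraries, which may be technical.

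Fibronectin is a large secreted glycoprotein that cells assemble into fibrils through integrins, and those fibrils guide the deposition of other matrix proteins. Elastic fibres have a core of cross-linked elastin on a scaffold of fibrillin microfibrils, and lysyl oxidase makes the cross-links in elastin and in fibrillar collagen. Matricellular proteins such as tenascins, periostin, SPARC and thrombospondins are secreted into the matrix but mainly modulate how cells attach and signal there. Mesenchymal stem cells in culture are known for making fibronectin and collagen in large amounts, and the study asked how cells that express SRF or an SRF fusion differ from control cells.

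Library totals ran from 19362319 to 29806771 counts. Levels are given as CPM, the count of a gene per 1000000 counts of its library. The 8 mesenchymal stem cell markers were detected in each group, among them NT5E at 250.2 to 739 CPM and ENG at 116 to 197 CPM. Of the markers of other cell types, the 6 blood cell markers summed to at most 4.17 CPM in any library. The 4 endothelial markers summed to 7.16 to 31.4 CPM, with PECAM1 at 4.31 to 27.96 CPM and KDR at 0.744 to 3.26 CPM. Of the 5 epithelial markers KRT5 was at 0 in 18 libraries, EPCAM stayed at or below 0.537 CPM and CDH1 at or below 1.14 CPM, while KRT8 ran from 24.3 to 52.3 CPM and KRT18 from 24.3 to 191 CPM. SRF stood at 61.0 ± 3.56 CPM (SD, n = 3) in pMSCV and above that in every other group, from 182 ± 29.96 CPM in SRF-FOXO1 to 945 ± 236 CPM in SRF. ICA1L, PDGFRB and RELA each had their highest mean in the fusion that holds their name. FOXO1 did not: it was at 9.79 ± 3.99 CPM in the libraries labelled SRF-FOXO1 and at 12.6 ± 4.27 CPM in pMSCV, so its counts do not check that label, and SRF-FOXO1 here means the libraries so labelled.

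FN1 had the highest mean level of all genes in the table. By the same ranking POSTN was in place 13, TNC 26, SPARC 29, THBS1 46, FBN1 62, THBS2 283, FBN2 523 and LOX 960, while ELN was in place 15347. Together the 10 genes took 3.07% to 10.3% of a library's counts, and FN1 alone made up 71.9% to 82.4% of their sum. Longer transcripts collect more counts, so levels between genes were compared per 1000 bases of annotated exon. On that length-scaled level, averaged over the 18 libraries, FN1 stood at 2567 CPM per 1000 bases, POSTN at 777 and SPARC at 518. TNC followed at 281 CPM per 1000 bases, THBS1 at 173, FBN1 at 78.1, THBS2 at 65.6, LOX at 29.4 and FBN2 at 19.7. ELN was far below the rest at 0.101 CPM per 1000 bases. Counts for fibronectin and fibrillin were thus plentiful, and hardly any fell on elastin.

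**Figure D1:**
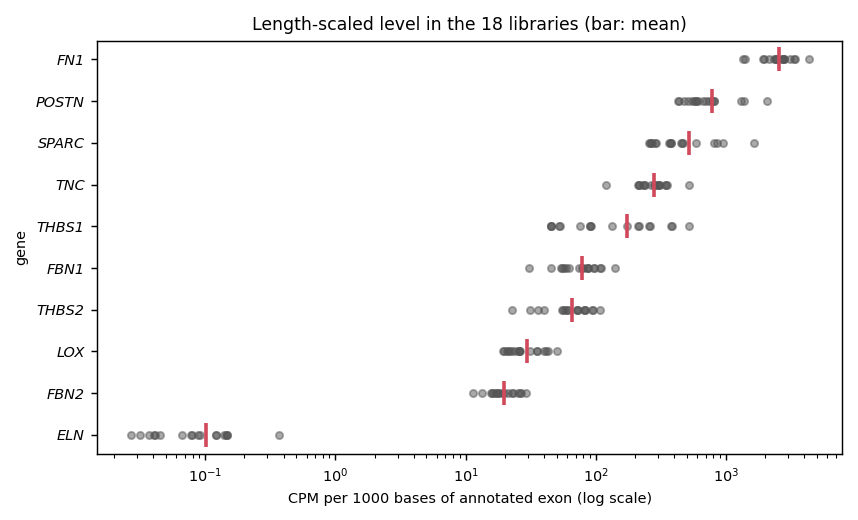
Length-scaled level of each gene in CPM per 1000 bases of annotated exon (horizontal log axis), with 1 point per library for the 18 libraries and a bar at the mean. FN1 lies highest at a mean of 2567 and ELN lowest at 0.101.

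In the fit without the replicate number, THBS1 was the 1 gene of the 10 that passed the test in any comparison of 2 groups. With the number added to the fit, LOX, SPARC, POSTN and TNC were each called in at least 1 comparison too, as given below. Without the number, THBS1 rose in the libraries labelled SRF-FOXO1 and in SRF-ICA1L against pMSCV, and in the libraries labelled SRF-FOXO1, in SRF-ICA1L and in SRF-RELA against SRF, by 5.39 to 6.64-fold. SRF alone against pMSCV called none of the 10. A gene was called at an edgeR adjusted p under 0.05, with adjustment over the 18544 genes. Against pMSCV, 1 of 10 was called in SRF-FOXO1 (0.928% of all tested genes were called), 1 of 10 in SRF-ICA1L (0.469%), 0 of 10 in SRF-RELA (0.183%), 0 of 10 in SRF-PDGFRB (0.0324%) and 0 of 10 in SRF (0.0270%). Against SRF, 1 of 10 was called in SRF-FOXO1 (1.36% of all tested genes), 1 of 10 in SRF-ICA1L (0.782%), 1 of 10 in SRF-RELA (0.388%) and 0 of 10 in SRF-PDGFRB (0.146%). Comparisons with pMSCV share its 3 libraries, and those with SRF share its 3, so their values stand side by side and are not independent.

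The unadjusted edgeR p and DESeq2 gave further counts, each set beside the share of all tested genes that met the same criterion. Against pMSCV, an unadjusted p under 0.05 was reached by 0 of 10 genes in SRF (5.38% of all tested genes), 0 in SRF-PDGFRB (2.10%), 1 in SRF-RELA (3.83%), 3 in SRF-FOXO1 (15.1%) and 4 in SRF-ICA1L (10.8%). DESeq2 called 0 in SRF (0.194%), 0 in SRF-PDGFRB (0.108%), 1 in SRF-RELA (0.701%), 1 in SRF-FOXO1 (2.89%) and 3 in SRF-ICA1L (1.76%). Against SRF, an unadjusted p under 0.05 was reached by 1 of 10 genes in SRF-PDGFRB (12.0%), 2 in SRF-RELA (9.54%), 2 in SRF-FOXO1 (14.4%) and 5 in SRF-ICA1L (11.8%). DESeq2 called 0 in SRF-PDGFRB (1.28%), 1 in SRF-RELA (1.15%), 2 in SRF-FOXO1 (3.88%) and 2 in SRF-ICA1L (2.41%). The median log2 fold change of the 10 genes against pMSCV was 0.61 in SRF-ICA1L, 0.45 in SRF-RELA, 0.37 in SRF-FOXO1, 0.19 in SRF-PDGFRB and -0.11 in SRF. Over all tested genes the medians of these comparisons lay between -0.01 and 0.01. Against SRF the 10 genes had a median log2 fold change of 0.71 in SRF-ICA1L, 0.49 in SRF-RELA, 0.40 in SRF-FOXO1 and 0.24 in SRF-PDGFRB, where all tested genes lay between -0.02 and -0.01. In SRF-ICA1L each of the 10 fold changes was above 0 against pMSCV and against SRF. The same held in SRF-RELA against SRF. In SRF-RELA against pMSCV, and in SRF-FOXO1 against pMSCV and against SRF, 9 of 10 were above 0. In SRF-PDGFRB it was 7 against pMSCV and 8 against SRF, and in SRF against pMSCV 2. The share of all tested genes above 0 is not given.

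**Figure D2:**
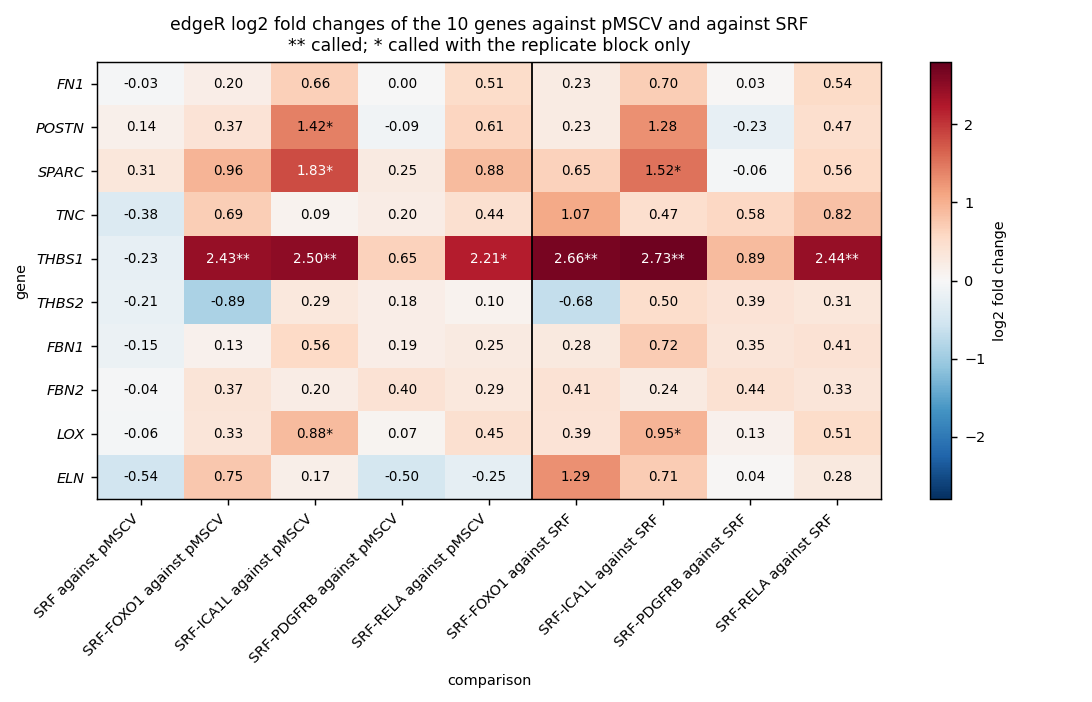
Log2 fold change from edgeR (colour and printed value, red higher in the first-named group) of the 10 genes in the 9 comparisons with pMSCV (left of the line) and SRF (right). THBS1 reaches 2.21 to 2.73 in SRF-RELA, SRF-FOXO1 and SRF-ICA1L, while its values in SRF-PDGFRB are 0.65 and 0.89. A double asterisk marks a call, and a single asterisk a call with the replicate block only. Single asterisks are left out for SRF-FOXO1 against SRF, where the block also called TNC.

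A second reading of the same libraries asked in which comparisons the 3 CPM values of one group lay wholly apart from those of the other. Against pMSCV this held for 5 of 10 genes in SRF-ICA1L (21.7% of all tested genes), 2 of 10 in SRF-FOXO1 (19.9%), 2 of 10 in SRF-RELA (14.9%), 1 of 10 in SRF-PDGFRB (9.93%) and 0 of 10 in SRF (10.1%). Against SRF it held for 3 of 10 in SRF-RELA (15.2%) and for 2 of 10 each in SRF-ICA1L (15.3%), SRF-PDGFRB (17.9%) and SRF-FOXO1 (12.1%). Apart from the 5 of 10 in SRF-ICA1L against pMSCV, these counts were between 0 and 3 genes. Libraries with the same replicate number deviated together, so the fit was also run with the number as a replicate block, and for the 10 genes its value is given where it changed a call.

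FN1 is the scaffold of the group and was abundant everywhere. It lies on chromosome 2 (GRCh38, 215360440 to 215436172, minus strand). Its levels in replicates 1, 2 and 3 were 46219, 36817 and 33694 CPM in pMSCV and 47798, 40569 and 23196 CPM in SRF. They were 24076, 59032 and 41736 CPM in SRF-FOXO1 and 47401, 74420.3 and 48337 CPM in SRF-ICA1L. They were 42173, 41573 and 33109 CPM in SRF-PDGFRB and 53314, 58058 and 48416 CPM in SRF-RELA. The SRF-ICA1L and SRF-RELA libraries all lay above the pMSCV libraries, and the SRF-RELA libraries above those of SRF, while the libraries labelled SRF-FOXO1 overlapped both controls. None of these differences passed the test. In log2 fold change, SRF-ICA1L was above pMSCV by 0.66 (SE 0.33, edgeR adjusted p 0.501), SRF-RELA above pMSCV by 0.51 (SE 0.33, edgeR adjusted p 1.00) and SRF-RELA above SRF by 0.54 (SE 0.33, edgeR adjusted p 0.588). In the order of group means, from SRF-ICA1L at 56720 CPM down to SRF at 37187 CPM, each group overlapped the next.

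ELN encodes elastin, the elastic core of the fibre, and its counts were few. It lies on chromosome 7 (GRCh38, 74027789 to 74069907, plus strand). It had 4 to 62 counts per library with a median of 15, which is 0.177 to 2.43 CPM. The highest value was in replicate 2 of the libraries labelled SRF-FOXO1 and the lowest in replicate 1 of pMSCV. No comparison called ELN, and its edgeR adjusted p was 0.474 or above in the 15 pairs of groups. ELN overlaps its antisense gene ELN-AS1 by 165 exon bases, and whether strand was used in counting is not given in the sources used here.

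FBN1 encodes the main fibrillin of microfibrils and FBN2 a fibrillin known mainly from developing tissue. FBN1 lies on chromosome 15 (48408306 to 48645849) and FBN2 on chromosome 5 (128257909 to 128659185), both on the minus strand. FBN1 ran from 495 to 2252 CPM with a median of 1270.3 CPM, and FBN2 from 149 to 382 CPM with a median of 246 CPM. Within every library FBN1 had more counts than FBN2, by 3.32 to 10.0-fold before any correction for length. Group means of FBN1 ran from 1012 ± 349 CPM (SD, n = 3) in SRF to 1558 ± 696 CPM in SRF-ICA1L, and those of FBN2 from 221 ± 42.2 CPM in SRF to 307 ± 71.5 CPM in SRF-PDGFRB. Neighbouring groups overlapped at every step of both orders. No comparison called either fibrillin, with edgeR adjusted p of 0.571 or above for FBN1 and 0.543 or above for FBN2.

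LOX encodes lysyl oxidase, the enzyme that cross-links elastin and collagen, on chromosome 5 (122063195 to 122078360, minus strand). In replicates 1, 2 and 3 it was at 122, 144 and 144 CPM in pMSCV, at 133, 143 and 108 CPM in SRF and at 195, 279.6 and 222 CPM in SRF-ICA1L. The 3 SRF-ICA1L libraries were above all control libraries. In the other fusions LOX was at 109, 228 and 143 CPM (SRF-FOXO1), 116, 196 and 117 CPM (SRF-PDGFRB) and 125, 239.7 and 172 CPM (SRF-RELA), with overlap in each case. The log2 fold change in SRF-ICA1L was 0.88 (SE 0.31, edgeR adjusted p 0.279) against pMSCV and 0.95 (SE 0.31, edgeR adjusted p 0.204) against SRF, which did not pass the test. With the replicate block both passed, at 0.85 (SE 0.18, edgeR adjusted p 0.0132) and 0.91 (SE 0.18, edgeR adjusted p 0.00846). The block called 4.66% of all tested genes in SRF-ICA1L against pMSCV and 4.73% against SRF.

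SPARC encodes osteonectin, a collagen-binding glycoprotein, and POSTN encodes periostin, a matrix protein that binds collagen, fibronectin and integrins. SPARC lies on chromosome 5 (151661096 to 151687165) and POSTN on chromosome 13 (37562583 to 37598844), both on the minus strand. SPARC in replicates 1, 2 and 3 was at 1227, 1799 and 1395 CPM in pMSCV, at 1374, 1818 and 2172 CPM in SRF and at 1819.6, 7917 and 4568 CPM in SRF-ICA1L. POSTN was at 3834, 3190.5 and 2332 CPM in pMSCV, at 4426, 3109.8 and 2583 CPM in SRF and at 4225, 11349 and 7443 CPM in SRF-ICA1L. For both genes the 3 SRF-ICA1L libraries lay above the 3 pMSCV libraries, and replicate 1 was the lowest of them by a wide margin and overlapped the SRF libraries. Against pMSCV the log2 fold change in SRF-ICA1L was 1.83 for SPARC (SE 0.54, edgeR adjusted p 0.198) and 1.42 for POSTN (SE 0.39, edgeR adjusted p 0.155), neither past the threshold. The replicate block called both, SPARC at 1.60 (SE 0.29, edgeR adjusted p 0.00558) and POSTN at 1.36 (SE 0.33, edgeR adjusted p 0.0313). With no block, both values moved with single SRF-ICA1L libraries. Without replicate 1, POSTN was called against pMSCV at 1.72 (edgeR adjusted p 0.0486), and without replicate 2 it was at 0.98 (edgeR adjusted p 0.631). SPARC against pMSCV was at 1.19 without replicate 2 (edgeR adjusted p 0.709). Against SRF, SPARC was at 1.52 (SE 0.53, edgeR adjusted p 0.252), at 1.28 with the replicate block (SE 0.29, edgeR adjusted p 0.0187), and at 0.88 without replicate 2 of SRF-ICA1L and no block (edgeR adjusted p 0.717).

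In the remaining groups neither gene was called. In replicates 1, 2 and 3 SPARC was at 1272, 3887 and 2834 CPM in SRF-FOXO1, at 1260.3, 2233 and 1755 CPM in SRF-PDGFRB and at 1311, 4149 and 2271 CPM in SRF-RELA. POSTN was at 2969, 4056 and 4440.0 CPM in SRF-FOXO1, at 2801, 3645 and 2370.4 CPM in SRF-PDGFRB and at 3335, 7100.4 and 3236 CPM in SRF-RELA. All of these groups overlapped pMSCV and SRF for both genes. With the replicate block, 4 of 10 genes were called in SRF-ICA1L against pMSCV (LOX, POSTN, SPARC and THBS1) and 3 of 10 against SRF (LOX, SPARC and THBS1).

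**Figure D3:**
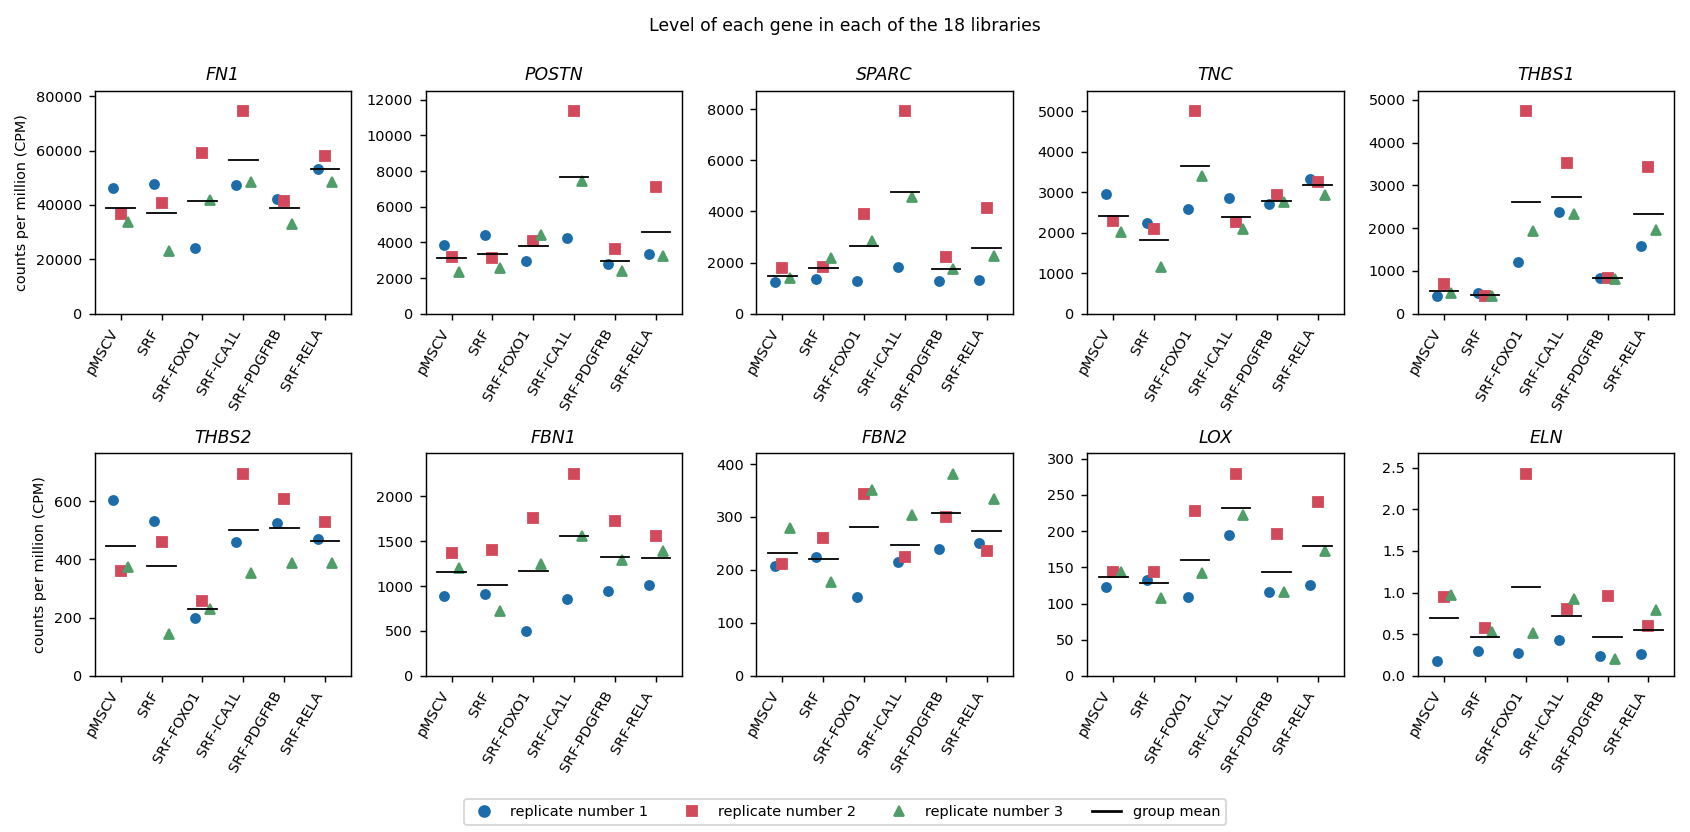
CPM of each gene (vertical axis, from 0) in the 18 libraries by group, with the replicate number as colour and shape and a line at each group mean. THBS1 is at 416 to 695 CPM in pMSCV and at 2333 to 3518 CPM in SRF-ICA1L, and replicate 1 of SRF-ICA1L lies below replicates 2 and 3 for SPARC and POSTN.

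TNC encodes tenascin-C, a matrix glycoprotein that is made in wounds and at sites of mechanical load, on chromosome 9 (115019578 to 115118257, minus strand). In replicates 1, 2 and 3 it was at 2948, 2296 and 2028 CPM in pMSCV, at 2235, 2083 and 1153 CPM in SRF and at 2577, 4996 and 3401 CPM in SRF-FOXO1. It was at 2862, 2253 and 2083 CPM in SRF-ICA1L, at 2710.2, 2920.1 and 2751 CPM in SRF-PDGFRB and at 3329, 3261 and 2938 CPM in SRF-RELA. SRF had the lowest group mean, and the libraries of SRF-FOXO1, SRF-PDGFRB and SRF-RELA all lay above its 3. In the order of group means each neighbouring pair overlapped except SRF-RELA and SRF-PDGFRB. The log2 fold change against SRF was 0.58 in SRF-PDGFRB (SE 0.27, edgeR adjusted p 0.405), 0.82 in SRF-RELA (SE 0.27, edgeR adjusted p 0.333) and 1.07 in libraries labelled SRF-FOXO1 (SE 0.27, edgeR adjusted p 0.0607). None of these passed the test in the fit with no block. In that fit, without replicate 1 of the libraries labelled SRF-FOXO1, the value for SRF-FOXO1 was 1.28 and passed (edgeR adjusted p 0.0130). Without their replicate 2 it was 0.72 (edgeR adjusted p 0.257). SRF replicate 3 and SRF-FOXO1 replicate 1 were also the libraries in which levels fell most with gene length, with slopes of -0.09 and -0.05 log2 units per doubling of exon length. This limit is not particular to TNC. Of the 18 libraries, SRF replicate 3 was also the lowest for FN1, THBS1, THBS2 and LOX, and SRF-FOXO1 replicate 1 for FBN1 and FBN2. The replicate block called TNC in SRF-FOXO1 against SRF, where it called 7.23% of all tested genes, with the values among the alternatives at the end. After a correction for length, added after seeing the data, TNC was called in this comparison at a log2 fold change of 1.05 (edgeR adjusted p 0.0277).

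THBS1 and THBS2 encode thrombospondin-1 and thrombospondin-2, related secreted proteins that bind CD47, CD36 and matrix proteins, and thrombospondin-1 is known for activating latent TGF-beta. THBS1 lies on chromosome 15 (GRCh38, 39581079 to 39599466, plus strand) and THBS2 on chromosome 6 (169215780 to 169254044, minus strand). Because THBS1 is the gene that was called between groups that differ in a transcription factor, the 250 bases before its start site are shown, from RefSeq on GRCh38.p14 (chr15:39580829-39581078, plus strand). Capitals mark the letters of the TEAD motif, CATTCC or its reverse complement GGAATG.
THBS1: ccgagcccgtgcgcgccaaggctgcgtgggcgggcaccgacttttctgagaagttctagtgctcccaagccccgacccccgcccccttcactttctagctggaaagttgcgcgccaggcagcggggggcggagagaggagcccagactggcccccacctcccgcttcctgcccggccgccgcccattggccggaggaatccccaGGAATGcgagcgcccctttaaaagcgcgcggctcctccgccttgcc

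The CArG box, the motif that SRF binds, was searched by its letters on both strands for the 9 members that matched the RefSeq table. The window searched was the 250 bases before and the 50 bases after a start site, for the members and for all promoters. The CArG box was in 0 of 9, and in 1.29% of the 35116 promoters of that table. CATTCC was in 4 of 9, against 14.0% of all promoters, and the 30 bases around it are shown for the other 3 genes, each on the minus strand of GRCh38.p14. A 6-letter match in such a window is a description, not a binding site. The position of the match differs: its base nearest the start site is at -41 in THBS1, -86 in THBS2, -12 in SPARC and -53 in FBN1, and THBS2 holds it in both orientations. Start sites are those of RefSeq, which can differ from the ends of the gene spans given here from GENCODE. For SPARC, FBN1 and FBN2 the whole 250 bases before the RefSeq start lie inside the GENCODE span.
THBS2 (chr6:169253926-169253955): tgatgtCATTCCttcgaaGGAATGaattaa
SPARC (chr5:151686916-151686945): ctaaacccctccaCATTCCcgcggtccttc
FBN1 (chr15:48645011-48645040): gggttgggcttgGGAATGgggaccgcgagg

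Another pair of motifs was searched in the same way. The AP-1 letters TGANTCA were in POSTN and in 7.71% of all promoters. The letters TATAAA were in POSTN and THBS2 and in 11.5% of all promoters. Both genes hold them 24 to 29 bases before the start site. Of the thrombospondin pair, both windows hold CATTCC and that of THBS2 holds TATAAA.

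THBS1 was the 1 gene of the 10 called without the replicate block. In replicates 1, 2 and 3 it was at 416, 695 and 474 CPM in pMSCV and at 487, 415 and 414 CPM in SRF. It was at 1208, 4729 and 1924 CPM in SRF-FOXO1, at 2366, 3518 and 2333 CPM in SRF-ICA1L and at 1582, 3432 and 1965 CPM in SRF-RELA. In SRF-PDGFRB it was at 839.5, 831 and 822 CPM. The 3 libraries of each fusion, SRF-PDGFRB included, lay above all 6 control libraries, and those of SRF-PDGFRB lay below all libraries of the other 3 fusions. Fewer cells with much THBS1 RNA and less THBS1 RNA per cell cannot be told apart in these bulk libraries.

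On the log2 scale, THBS1 in libraries labelled SRF-FOXO1 rose over pMSCV by 2.43 (SE 0.44, edgeR adjusted p 0.0212) and over SRF by 2.66 (SE 0.45, edgeR adjusted p 0.0103). SRF-ICA1L rose over pMSCV by 2.50 (SE 0.44, edgeR adjusted p 0.0160) and over SRF by 2.73 (SE 0.45, edgeR adjusted p 0.00843). For SRF-RELA over SRF the value was 2.44 (SE 0.44, edgeR adjusted p 0.0284). SRF-RELA against pMSCV was at 2.21 (SE 0.44, edgeR adjusted p 0.0668), and passed with the replicate block at 2.16 (SE 0.32, edgeR adjusted p 0.00278). SRF-PDGFRB did not pass, at 0.65 (SE 0.42, edgeR adjusted p 1.00) against pMSCV and 0.89 (SE 0.42, edgeR adjusted p 0.425) against SRF. The replicate block called 7.03% of all tested genes in SRF-FOXO1 against pMSCV, 0.971% in SRF-RELA against pMSCV and 1.73% in SRF-RELA against SRF, and THBS1 was called in each.

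In the fit with no block the THBS1 calls depended on single libraries, although the fold changes of the called comparisons stayed above 0. Libraries were not left out of a fit with the block for these comparisons. With all libraries, the 5 called comparisons had edgeR adjusted p of 0.000317 to 0.00172 with the block. DESeq2, with no block, gave them adjusted p of 1.61e-08 to 1.55e-06. Against pMSCV they were lost without any 1 of the pMSCV libraries (edgeR adjusted p 0.0524 to 0.152 in SRF-FOXO1 and 0.0516 to 0.122 in SRF-ICA1L), and without replicate 2 of SRF-FOXO1 (log2 fold change 1.61, edgeR adjusted p 0.0605) or of SRF-ICA1L (2.24, edgeR adjusted p 0.0805). Against SRF, SRF-FOXO1 lost the call without SRF replicate 1 (edgeR adjusted p 0.0591) or 2 (0.0681), and SRF-ICA1L without SRF replicate 2 (0.0628) or 3 (0.0501). Without its own replicate 2, SRF-FOXO1 against SRF was still called but at 1.84 in place of 2.66 (edgeR adjusted p 0.0275). SRF-RELA against SRF lost it without any 1 of the SRF libraries (edgeR adjusted p 0.101 to 0.164) or without SRF-RELA replicate 2 (0.137), and SRF-RELA against pMSCV was called without SRF-RELA replicate 1 (0.0449). Leaving out all 6 libraries of 1 number had larger effects. Without number 3 each of the 5 calls was lost, with edgeR adjusted p of 0.240 in SRF-FOXO1 and 0.457 in SRF-ICA1L against pMSCV, and of 0.123 in SRF-FOXO1, 0.320 in SRF-ICA1L and 0.726 in SRF-RELA against SRF. Without number 1, SRF-ICA1L against pMSCV (0.0570) and SRF-RELA against SRF (0.0716) were lost. Without number 2 the 5 calls held, with SRF-FOXO1 down to 1.84 against pMSCV and 1.78 against SRF, and SRF-RELA against pMSCV was called too (0.0146).

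The summed level of 4 smooth muscle markers was also high in the groups where THBS1 was high. The sum was 6.97 to 23.7 CPM in pMSCV, 13.8 to 53.8 CPM in SRF and 22.0 to 56.0 CPM in SRF-PDGFRB, and 183 to 255 CPM in SRF-ICA1L, 163 to 477 CPM in SRF-RELA and 417 to 697 CPM in SRF-FOXO1. In these last 3 groups most of it was ACTG2, a smooth muscle actin, with group means (SD 4.98 to 125, n = 3) of 6.84 CPM in pMSCV, 12.3 in SRF, 22.1 in SRF-PDGFRB, 192 in SRF-ICA1L, 245 in SRF-RELA and 491 in SRF-FOXO1. CNN1, or calponin, had means of 9.59 CPM in pMSCV to 20.2 in SRF-PDGFRB, and of 37.0 in SRF-ICA1L to 53.1 in SRF-FOXO1. MYH11, the smooth muscle myosin, had means of 7.11 ± 6.81 CPM in SRF-FOXO1 and 9.50 ± 11.3 CPM in SRF-RELA but of 1.07 in SRF-ICA1L, near the 0.977 of pMSCV and the 1.03 of SRF-PDGFRB. DES, the intermediate filament gene of muscle, was at 0 in 7 of 18 libraries and had group means of at most 0.377 CPM. The keratin gene KRT18 had means (SD 16.1 to 63.8, n = 3) of 42.7 CPM in pMSCV, 59.4 in SRF and 56.2 in SRF-PDGFRB, and of 78.0 in SRF-RELA, 115 in SRF-FOXO1 and 129 in SRF-ICA1L. It was picked from the 5 epithelial markers after its values were seen. The sum of the 5 overlapped between these sets of groups, at 51.2 to 143 CPM in SRF and 75.2 to 153 CPM in SRF-RELA. KRT8 stayed between 24.3 and 52.3 CPM in all libraries. These markers were not tested one by one, and their part in the THBS1 result was not tested. THBS1 overlaps FSIP1 on the opposite strand by 448 exon bases, and FSIP1 was at a mean of 2.46 CPM.

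THBS2 was called in no comparison, with or without the block. In replicates 1, 2 and 3 it was at 604, 361 and 374 CPM in pMSCV, at 531, 459 and 145 CPM in SRF and at 200.1, 256 and 229.7 CPM in SRF-FOXO1. It was at 459.9, 694 and 351 CPM in SRF-ICA1L, at 524, 609 and 389 CPM in SRF-PDGFRB and at 471, 529 and 387 CPM in SRF-RELA. The libraries labelled SRF-FOXO1 all lay below those of pMSCV, at -0.89 on the log2 scale (SE 0.39, edgeR adjusted p 0.304), which did not pass the test, while SRF replicate 3 lay lower still. Over the 18 libraries the 2 genes had a Pearson correlation of 0.10 in log2 CPM, which is a description of libraries that share groups and replicate numbers.

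Counts of the pair within a library do not depend on its total. There were 0.688 to 1.92 THBS1 counts per THBS2 count in pMSCV, 0.904 to 2.85 in SRF and 1.37 to 2.11 in SRF-PDGFRB. The ratio was 5.07 to 6.64 in SRF-ICA1L, 3.36 to 6.49 in SRF-RELA and 6.04 to 18.5 in SRF-FOXO1. The 9 libraries of SRF-RELA, SRF-ICA1L and SRF-FOXO1 thus lay above the other 9. Relative to FN1, THBS1 was at 0.900% to 1.89% of the FN1 counts in pMSCV, 4.73% to 4.99% in SRF-ICA1L and 4.61% to 8.01% in SRF-FOXO1. It was at 1.99% to 2.48% in SRF-PDGFRB, 2.97% to 5.91% in SRF-RELA and 1.02% to 1.78% in SRF.

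**Figure D4:**
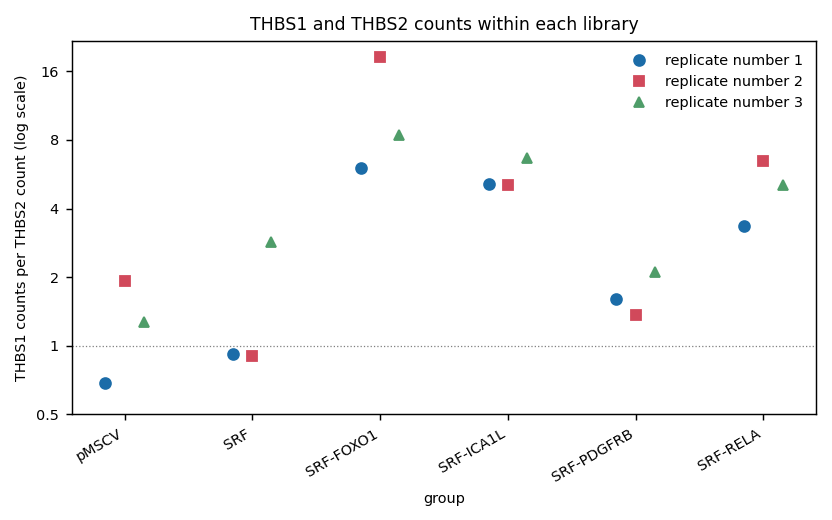
THBS1 counts per THBS2 count (vertical log axis) in each of the 18 libraries by group, with the replicate number as colour and shape. SRF-RELA, SRF-ICA1L and SRF-FOXO1 lie at 3.36 and above, the other groups at 2.85 and below.

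The fusions were also compared with each other. In the edgeR fit without the block, 0 of 10 genes were called in SRF-FOXO1 against SRF-ICA1L (0.0270% of all tested genes), SRF-FOXO1 against SRF-PDGFRB (0.717%), SRF-FOXO1 against SRF-RELA (0.00539%), SRF-ICA1L against SRF-PDGFRB (0.820%), SRF-ICA1L against SRF-RELA (0.0108%) and SRF-RELA against SRF-PDGFRB (0.162%). In the same order an unadjusted p under 0.05 was reached by 3 (6.07% of all tested genes), 2 (14.8%), 1 (10.4%), 4 (11.7%), 0 (3.06%) and 1 (3.87%) of the 10. DESeq2 called 0 (0.458%), 1 (2.56%), 0 (0.108%), 2 (2.49%), 0 (0.0216%) and 1 (0.653%). With the replicate block THBS1 was called higher than in SRF-PDGFRB in each of the other 3 fusions. Its log2 fold change there was 1.58 (edgeR adjusted p 0.0122) in SRF-FOXO1, 1.78 (0.00489) in SRF-ICA1L and 1.44 (0.0451) in SRF-RELA, and without the block 1.78 (0.0752), 1.85 (0.0657) and 1.55 (0.342). The block called 4.35%, 4.76% and 0.847% of all tested genes in these comparisons.

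SRF-ICA1L against SRF-PDGFRB gave 3 more calls with the replicate block, for SPARC, POSTN and LOX. On the log2 scale SPARC was higher by 1.40 (SE 0.29, edgeR adjusted p 0.0115; without the block 1.58, 0.227), POSTN by 1.48 (SE 0.33, edgeR adjusted p 0.0195; without the block 1.51, 0.0932) and LOX by 0.84 (SE 0.18, edgeR adjusted p 0.0131; without the block 0.82, 0.297). In the fit with no block, POSTN was called without replicate 1 of SRF-ICA1L at 1.81 (edgeR adjusted p 0.0407) and was at 1.07 without its replicate 2 (edgeR adjusted p 0.394), where SPARC was at 0.95 (edgeR adjusted p 0.651). THBS1 in SRF-FOXO1 against SRF-PDGFRB was called without replicate 1 of SRF-FOXO1 at 2.12 (edgeR adjusted p 0.0117), and without its replicate 2 was at 0.96 (edgeR adjusted p 0.242). THBS1 in SRF-ICA1L against SRF-PDGFRB was called without the libraries numbered 2, at 1.60 (edgeR adjusted p 0.0393).

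Replicate number was itself tested beside the group, since the libraries numbered 2 stood high for many of these genes. It was called for 5 of 10 genes (SPARC, FBN1, LOX, ELN and THBS1), against 24.6% of all tested genes. SPARC had its lowest library at number 1 in 6 of 6 groups, and its level at number 2 was above that at number 1 by 1.24 log2 units (edgeR adjusted p 0.00187). FBN1 (1.01 log2 units, edgeR adjusted p 0.00231) and LOX (0.65, edgeR adjusted p 0.00336) had their highest library at number 2 in 6 of 6 groups. For ELN the difference was 1.87 log2 units (edgeR adjusted p 0.00804) on its few counts, and for THBS1 0.74 (edgeR adjusted p 0.0334). FN1, POSTN, TNC, THBS2 and FBN2 were not called for the number, with differences between numbers 2 and 1 of 0.06 to 0.44 log2 units. What a number marks is not given in the sources used here.

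**Figure D5:**
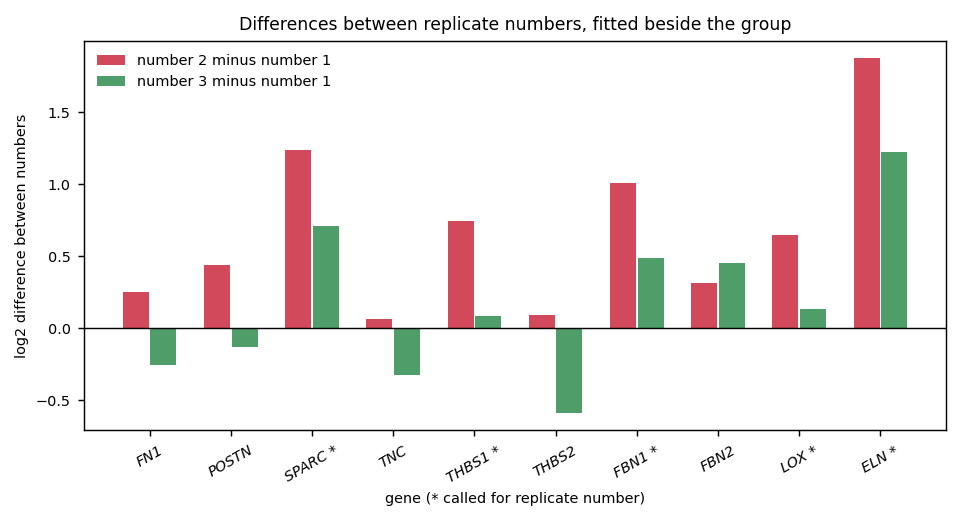
Fitted difference in log2 level of libraries numbered 2 (red) and 3 (green) from those numbered 1, for each gene, in a fit with group and number (vertical axis in log2 units, bars from 0; 6 libraries per number). SPARC, FBN1, LOX, ELN and THBS1 are called, and number 2 is above number 1 for all 10 genes.

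Other genes of the same matrix systems were taken from lists of elastic fibre, matricellular and receptor genes. Of 18 further elastic fibre genes 17 were tested, and MFAP4, a microfibril-associated glycoprotein, rose in SRF-ICA1L against SRF by 1.11 on the log2 scale (SE 0.22, edgeR adjusted p 0.0273). MFAP4 was at 116, 132 and 114 CPM in SRF-ICA1L, at 66.9, 53.5 and 57.7 CPM in SRF and at 54.1, 45.7 and 40.8 CPM in SRF-PDGFRB, with no overlap. Against SRF-PDGFRB it rose by 1.48 (SE 0.22, edgeR adjusted p 0.00513), and MFAP5, another microfibril-associated protein, rose by 2.18 (SE 0.45, edgeR adjusted p 0.0359). The MFAP4 call against SRF was lost without any 1 of the 6 libraries compared (edgeR adjusted p 0.0511 to 0.141), while that against SRF-PDGFRB held without each of them (0.0108 to 0.0385). MFAP5 was called without SRF-ICA1L replicate 1 (edgeR adjusted p 0.0212) and lost without any other of its 6 libraries (0.120 to 0.163). The other comparisons called 0 of 17 without the block, with 0 to 4 at an unadjusted edgeR p under 0.05 (2.10% to 15.1% of all tested genes) and 0 or 1 called by DESeq2 (0.0216% to 3.88%). The list's median log2 fold change in SRF-ICA1L was 0.16 against SRF and 0.18 against SRF-PDGFRB, where all tested genes had -0.02 and 0.00.

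The replicate block called further elastic fibre genes. Of all tested genes the block called 4.66% in SRF-ICA1L against pMSCV, 4.73% in SRF-ICA1L against SRF and 4.76% in SRF-ICA1L against SRF-PDGFRB. It called 1.73% in SRF-RELA against SRF and 7.03% in SRF-FOXO1 against pMSCV. In SRF-ICA1L against pMSCV it called 3 of 17, all higher: MFAP4 at 1.05 (SE 0.19, edgeR adjusted p 0.00514; without the block 1.01, 0.0575), EFEMP1, or fibulin-3, at 1.08 (SE 0.21, edgeR adjusted p 0.00935; without the block 1.23, 0.422) and EMILIN1, a protein of the elastin-microfibril interface, at 0.44 (SE 0.11, edgeR adjusted p 0.0323; without the block 0.45, 0.259). In SRF-ICA1L against SRF-PDGFRB it called MFAP4, MFAP5 and EFEMP1 higher and LOXL3, a relative of lysyl oxidase, lower. LOXL3 was also called lower than in SRF in SRF-ICA1L, at -0.77 (edgeR adjusted p 0.000353), where MFAP4 was called higher, and in SRF-RELA, at -0.58 (edgeR adjusted p 0.00541). LTBP1, which binds latent TGF-beta, was called lower in SRF-FOXO1 against pMSCV at -0.57 (edgeR adjusted p 0.0273). EFEMP1 was called lower in SRF-PDGFRB against SRF, 1 of 17 where the block called 2.34% of all tested genes, and EFEMP1 and MFAP4 lower in SRF-FOXO1 against SRF-ICA1L, 2 of 17 where it called 0.911%.

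Of 24 further matricellular genes 18 were tested and 0 were called by edgeR without the block in any of the 15 comparisons, with 0 to 5 at an unadjusted p under 0.05 (2.10% to 15.1% of all tested genes) and 0 to 3 called by DESeq2 (0.0216% to 3.88%). The most abundant, TGFBI, a TGF-beta-induced adhesion protein, was at a mean of 7145 CPM and PXDN, a peroxidase of basement membranes, at 1411 CPM. The list's median log2 fold change ran from -0.24 in SRF-FOXO1 against pMSCV to 0.28 in SRF-ICA1L against SRF-PDGFRB. The replicate block changed the counts. In SRF-FOXO1 against SRF it called 5 of 18, 1 higher and 4 lower (7.23% of all tested genes), as listed among the alternatives at the end. In SRF-ICA1L it called 3 of 18 against SRF (4.73%) and 3 of 18 against SRF-PDGFRB (4.76%). With the replicate block 3 of 18 were called in SRF-FOXO1 against pMSCV (7.03% of all tested genes). CCN2, or connective tissue growth factor, was higher at 1.15 (edgeR adjusted p 0.0436). SPOCK1, a proteoglycan related to SPARC, and ECM1 were lower at -0.55 (edgeR adjusted p 0.0164) and -0.39 (0.0253). MFGE8, or lactadherin, was called higher in SRF-ICA1L against pMSCV at 0.82 (edgeR adjusted p 0.00965), against SRF at 0.71 (0.0215) and against SRF-PDGFRB at 0.92 (0.00456). In the last comparison CCN5 and ECM2 were higher too, and against SRF, SMOC1, another relative of SPARC, and ECM1 were lower. CCN5 and ECM1 were called lower than in SRF in both SRF-PDGFRB and SRF-RELA. CCN5 had 32.7, 15.3 and 15.1 CPM in SRF, against 3.59, 1.30 and 2.69 CPM in SRF-PDGFRB. With the block its log2 fold change was -3.12 (edgeR adjusted p 0.00141, and without the block -3.10, 0.0645). In pMSCV, CCN5 was at 11.5, 4.51 and 3.84 CPM, below its SRF libraries. Neither SRF-PDGFRB nor SRF-RELA was called for CCN5 against pMSCV, with or without the block. In SRF-FOXO1 the block called SPOCK1 lower than in SRF-ICA1L and PXDN lower than in SRF-PDGFRB.

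Of 12 receptors for these proteins 9 were tested and 0 were called by edgeR without the block, with 0 to 4 at an unadjusted p under 0.05 (2.10% to 15.1% of all tested genes) and 0 to 2 called by DESeq2 (0.0216% to 3.88%). ITGB1 and ITGA5, the chains of the classical fibronectin receptor, were the most abundant. With the replicate block 2 of 9 were called in SRF-FOXO1 against pMSCV (7.03% of all tested genes), both higher. On the log2 scale ITGA5 rose by 1.36 (SE 0.24, edgeR adjusted p 0.00397, and without the block 1.49, 0.0538). ITGB3, a chain of the vitronectin receptor, rose by 1.83 (SE 0.22, edgeR adjusted p 0.000270, and without the block 2.03, 0.0867). ITGA5 was at 649, 2037 and 1289 CPM there, against 467, 501 and 558 CPM in pMSCV, and ITGB3 at 26.6, 96.1 and 29.9 CPM, against 9.45, 17.4 and 13.8 CPM. ITGA5 was not called in SRF-FOXO1 against SRF, with or without the block. In SRF, ITGA5 was at 672, 765 and 781 CPM and ITGB3 at 15.5, 33.1 and 19.6 CPM. The block also called both higher in SRF-FOXO1 than in SRF-PDGFRB, and ITGB3 higher than in SRF-ICA1L at 1.27 (edgeR adjusted p 0.0117). ITGA4, another integrin chain that pairs with ITGB1, was called higher with the block in SRF-ICA1L against pMSCV at 0.72 (edgeR adjusted p 0.0239), in SRF-ICA1L against SRF at 0.76 (0.0173) and in SRF-RELA against SRF at 0.71 (0.0451).

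Some genes followed the 10 closely from library to library. The measure was the Pearson correlation of log2 CPM over the 18 libraries, searched among 5935 well-expressed genes, and it is a description, since the libraries share groups, replicate numbers and depth. FN1 was closest to SEC31A (r = 0.96), THBS1 to HK1 (0.96), SPARC to BASP1 (0.96), LOX to COL5A2 (0.95) and FBN1 to AFAP1 (0.95). TNC was closest to NRP2 (0.94), THBS2 to ARHGEF7 (0.94), POSTN to COL1A1 (0.93), FBN2 to DAG1 (0.90) and ELN to NEK7 (0.83). Among the 10 genes themselves SPARC and LOX were the most alike (0.87) and ELN and THBS2 the least (-0.10). After the group means were taken out SPARC and LOX had a correlation of 0.80. Other pairs then stood higher, with FBN1 and LOX the most alike (0.85). What remains includes the differences between replicate numbers.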

How the data were processed

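RNA-seq libraries were made with a stranded mRNA kit and sequenced on an Illumina NovaSeq, per the labels' protocols. The authors deposited raw counts per Ensembl gene, 1 column per library, per the file headers. The submitters' processing notes name FastQC 0.11.8, Trimmomatic 0.39, HISAT2, featureCounts from Subread 2.0.3 and GRCh38. The annotation release, the use of strand and the handling of multi-mapping reads are not given in the sources used here, so genes that overlap on opposite strands could share reads.

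Symbols came from a table of gene names for 61369 of 61487 identifiers, and coordinates and exon lengths from GENCODE 29. CPM values are counts over the library total. Genes were filtered with filterByExpr (minimum count 10), scaled by TMM and fitted with edgeR 4.0.16 in R 4.3.3 (robust quasi-likelihood, 18 libraries, 1 coefficient per group, 12 residual degrees of freedom, common coefficient of variation 0.225). The 15 pairs of groups were tested two-sided, with Benjamini-Hochberg adjustment over 18544 genes. The standard error is the absolute log2 fold change over the square root of F. The code was tested on simulated data.

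Same-numbered libraries of different groups deviated together: 44 of 45 pairs had a correlation over 0.1 (median 0.38). The median was -0.18 for 90 pairs with different numbers. Deviations from a mean of 3 libraries cancel out, so that value follows largely from the first and is no separate evidence. Of the same-numbered pairs only SRF replicate 1 with SRF-FOXO1 replicate 1 fell short, at 0.087. For that comparison the block is therefore given mainly among the alternatives. The block left 10 residual degrees of freedom and a coefficient of variation of 0.150. Alternatives were DESeq2 1.42.0, its size factors, scaling by total count, other count filters, a log2 fold change of at least 1, only the 2 compared groups, the block and leaving out libraries. A correction for exon length (a spline with 3 degrees of freedom, 18041 genes) was added after seeing the data.

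The members, the lists and the rule for named genes were chosen with earlier results of these data known. The rule names all 10 genes, gives a fold change where it was called with or without the block or where groups compared with pMSCV or SRF did not overlap, and takes from each list up to 3 called genes per comparison, or else the 2 most abundant. The list genes called only with the block, and the marker KRT18, were named after their values were seen. Promoter sequences were matched by symbol to RefSeq for 9 of 10 genes, with the first of 3 start sites for LOX.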

Additional observations from a re-analysis of the deposited data

How the results depend on the processing

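None of the 26 fold changes given for single genes changed sign. They had been picked for a call or for groups that did not overlap, so a kept sign was likely beforehand and is no support. The alternative with a log2 fold change of at least 1 also reuses the main value. Of 494 alternative values, 419 kept their side of the threshold, 46 passed it and 29 no longer did. The cause was not tested. With the replicate block the number of the 10 genes called became 4 in SRF-ICA1L against pMSCV, 3 in SRF-ICA1L against SRF, 4 in SRF-ICA1L against SRF-PDGFRB, 2 in SRF-FOXO1 against SRF, and 1 in each of SRF-RELA against pMSCV, SRF-FOXO1 against SRF-PDGFRB and SRF-RELA against SRF-PDGFRB, and it moved no other count. The second gene in SRF-FOXO1 against SRF was TNC (1.09, edgeR adjusted p 0.0104). In that comparison the block called 7.23% of all tested genes, and of the lists it called LOXL3 lower (1 of 17), CCN2 higher and SMOC1, SPOCK1, CCN5 and ECM1 lower (5 of 18) and ITGB3 and ITGA4 higher (2 of 9). The length correction with the block gave the same counts in these comparisons and 2 in SRF-FOXO1 against pMSCV (8.68% of all tested genes). Length correction alone gave 2 in SRF-FOXO1 against SRF (1.79%) and 1 in SRF-ICA1L against SRF-PDGFRB (0.931%). DESeq2 called 3 in SRF-ICA1L against pMSCV (1.76% of all tested genes), 2 each in SRF-FOXO1 (3.88%) and SRF-ICA1L (2.41%) against SRF and in SRF-ICA1L against SRF-PDGFRB (2.49%), and 1 each in SRF-RELA against pMSCV (0.701%) and in SRF-FOXO1 (2.56%) and SRF-RELA (0.653%) against SRF-PDGFRB. Scaling by total count called 1 in SRF-RELA against pMSCV (0.210%). Without a count filter 0 were called in SRF-FOXO1 and SRF-ICA1L against pMSCV and in SRF-RELA against SRF (THBS1 at edgeR adjusted p 0.0728, 0.0808 and 0.107). With only the 2 compared groups 0 were called in SRF-FOXO1 against pMSCV, SRF-FOXO1 against SRF and SRF-RELA against SRF (THBS1 at edgeR adjusted p 0.229, 0.171 and 0.0715). This setting called 0.0292%, 0.00584% and 0.0698% of all tested genes in these comparisons. In SRF-ICA1L against SRF-PDGFRB it called 1 of the 10 (0.586% of all tested genes). Leaving out libraries gave 0 to 2 called genes in SRF-FOXO1 against SRF and SRF-ICA1L against pMSCV, 0 to 1 in SRF-FOXO1 and SRF-RELA against pMSCV, in SRF-ICA1L and SRF-RELA against SRF and in SRF-FOXO1 and SRF-ICA1L against SRF-PDGFRB, and 0 in the other comparisons. For replicate number, 4 to 6 genes were called over its alternatives, where the main fit called 24.6% of all tested genes. Shares of all tested genes are not given for the alternatives of replicate number. They are also not given for leaving out libraries or for the fit without a count filter. Depth limits ELN most, with 4 to 62 counts per library.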
